A study of Mus musculus with 24 samples.

Results

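In WT bone marrow-derived macrophages (BMDMs), gene expression after LPS 24h was compared with gene expression after LPS 3h, to see which early genes had declined and which genes had come up by the late time. The comparison uses 6 of the 24 libraries of the series, namely the 3 WT cultures labelled 24h_LPS and the 3 WT cultures labelled Mock/3h_LPS, and all genes of the count table. BMDMs are macrophages grown from mouse bone marrow, here for 7 days in 20 ng/ml of the growth factor M-CSF, from mice that the labels give as 8 to 20 weeks old. The study's methods give a wider age range for mice used in culture experiments. LPS 24h cells received 100 ng/ml LPS for 24 h and were harvested directly. LPS 3h cells (non-tolerized) were first kept for 24 h without LPS, were then given new medium, rested for 1 h and received LPS for 3 h. The length of LPS exposure, the new medium with its rest, and the total time in culture therefore cannot be told apart. The labels name no mouse strain, and the study's methods name C57BL/6N mice as the WT controls of Irg1-/- mice. WT Unstim. cells, which received no LPS (3 cultures), are given beside the results as values, because any comparison of them with either LPS group shares its libraries. The same change was also measured in Irg1-/- cells, which lack Acod1, the enzyme that makes itaconate (3 cultures per group).

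LPS is sensed by Tlr4 with Cd14 and Ly96, and the signal passes through Myd88 to NF-kappaB and MAP kinases and through Ticam1 to Irf3 and interferon beta. Primary response genes such as those for Tnf, the Cxcl chemokines and NF-kappaB inhibitors are transcribed within minutes to hours, and many of their transcripts are short-lived. Interferon beta then acts back on the cells through its receptor, and a later programme of effector, metabolic and repair genes follows.

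Each library is a 3' end library of polyadenylated RNA, in which reads were counted per gene. Levels are given as normalised CPM, that is CPM on genes, scaled by the TMM method, and a log2 fold change is LPS 24h minus LPS 3h. Genes are called higher or lower after LPS 24h when the adjusted p of edgeR's quasi-likelihood test was under 0.05. The WT LPS 3h libraries held 7797424 to 12258471 counts on genes and the WT LPS 24h libraries 7361671 to 10374213. The scaling matters here, since the TMM factors were 0.6804 to 0.7038 after LPS 3h and 1.01 to 1.116 after LPS 24h. WT LPS 24h replicate 3 stood apart from the other libraries. It lay at 76.3 on the second principal component, against -49.6 and -24.5 for the other LPS 24h libraries. Of its reads 33.7% fell on no feature, against 24.4% and 23.5% in the other LPS 24h libraries, but 26.7% to 32.1% in the WT Unstim. libraries of its pool. WT LPS 24h replicate 3 also held 476 normalised CPM of the predicted gene Gm10800, against 8.16 and 19.8 in the other LPS 24h libraries, and 87.5 of the mitochondrial mt-Cytb, against 752 and 388. Results that rest on this library are given with and without it. The LPS 3h libraries also spread, from -53.7 to 65 on the third component. In the WT LPS libraries each replicate number comes from 1 library pool, so replicate and pool cannot be separated. All 3 WT Unstim. libraries came from the pool of replicate 3, so their levels beside the LPS groups differ in part by pool.

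Of the 11878 genes tested, 1994 (16.8%) were higher and 1838 (15.5%) were lower after LPS 24h, which makes 3832 genes (32.3%) in all. The change was at least 4-fold for 723 of the genes called higher and 787 of those called lower, and at least 16-fold for 155 and 223. The 3 cultures of both groups did not overlap for 1785 of the genes called higher and 1752 of those called lower. Within each of the 3 pools, which hold 1 culture of each group, 1912 of the higher and 1787 of the lower genes had the same sign. Both sets of counts were taken among genes already called on the same libraries, so they give no separate support for the calls. The split between higher and lower depends on the scaling: with library size alone, 4461 genes were higher and 1042 lower, so that 81.1% of calls were higher against 52.0%, and the median log2 fold change of all genes moved from 0.14 to 0.78, a shift of 0.64. The log2 fold changes below are those under TMM, with no median subtracted. Without WT LPS 24h replicate 3, 1533 genes were higher and 1853 lower, of which 1421 and 1596 were the same calls. A single gene tested by exact permutation of 3 cultures against 3 cannot give a p under 0.1, so calls come from the fit across all genes.

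**Figure D1:**
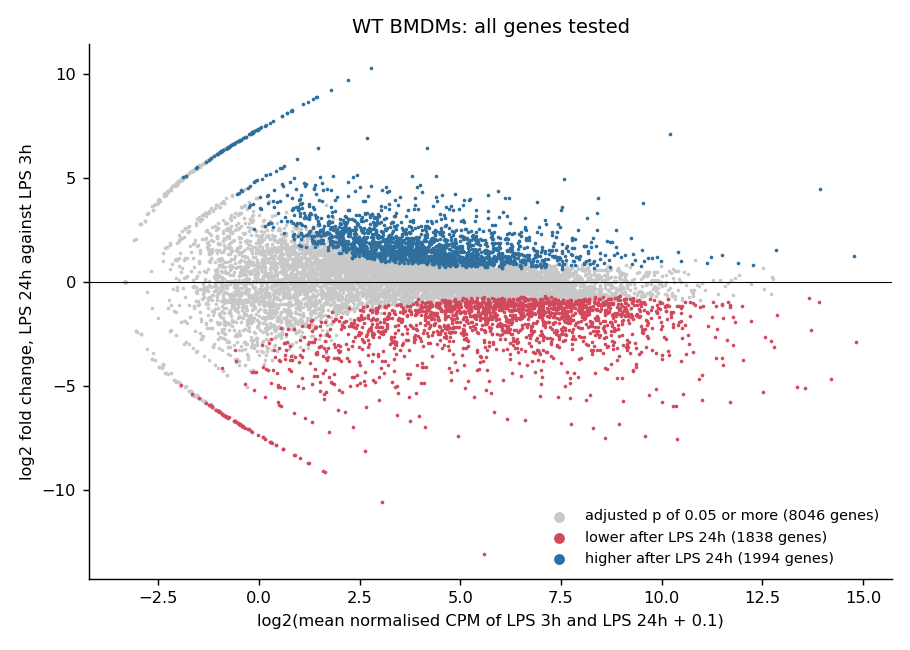
Log2 fold change of each of the 11878 genes tested (y axis, WT LPS 24h against LPS 3h) against the log2 of its mean normalised CPM over both groups plus 0.1 (x axis), with the 1994 genes called higher in blue, the 1838 called lower in red and the rest in grey. Points spread furthest from 0 at low levels, where the bands are genes with no count in some libraries and the fitted change depends on the prior count, while Arg1 at 7.12 and Il12b at -7.54 lie far from 0 at high levels.

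The transcripts that lost most in level were those of Rsad2, Tnfaip2, Cxcl2, Sdc4 and Acod1. Rsad2, an interferon-induced antiviral enzyme, stood at 52155, 42781 and 58312 normalised CPM after LPS 3h and at 3867, 7046 and 9752 after LPS 24h. Tnfaip2 went from 27435, 40768 and 41065 to 900, 1058 and 2360. The groups did not overlap for either gene. Cxcl2, a neutrophil-attracting chemokine, went from 31603, 19164 and 19888 to 613, 613 and 823, and the surface proteoglycan Sdc4 from 18699, 19617 and 22518 to 565, 553 and 755. The largest gains were those of Saa3, Fth1, Prdx1, B2m and Ftl1, which are an acute phase protein, both ferritin chains, a peroxide-reducing enzyme and the light chain of MHC class I. Saa3 stood at 2079, 1146 and 765 after LPS 3h and at 35061, 33707 and 21296 after LPS 24h, and Fth1 went from 18950, 14512 and 16301 to 49227, 38392 and 30104. The B2m call was close to the threshold (adjusted p = 0.0484) and was lost under DESeq2's size factors and without any 1 of the 6 libraries.

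Promoter sequences of some of these genes are shown to set the letters of known response elements beside the direction of the change. They are the 150 bases before the RefSeq start of each gene (GRCm38.p6), 5' to 3' on the gene's own strand. Capitals mark every match on either strand to a kappaB element bound by NF-kappaB (GGANNTTCC), an interferon-stimulated response element, ISRE (AAANNGAAA), or an AP-1 site bound by Fos and Jun proteins (TGANTCA). Among the genes called lower are these.
Cxcl2, chr5:90903749-90903898, plus strand: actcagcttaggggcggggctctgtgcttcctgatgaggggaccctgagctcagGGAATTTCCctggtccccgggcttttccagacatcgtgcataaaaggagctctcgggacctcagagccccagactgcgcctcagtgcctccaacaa
Il6, chr5:30012964-30013113, plus strand: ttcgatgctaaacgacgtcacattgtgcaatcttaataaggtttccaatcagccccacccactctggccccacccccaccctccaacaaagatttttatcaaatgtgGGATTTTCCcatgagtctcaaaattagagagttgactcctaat
Nfkbia, chr12:55492648-55492797, minus strand: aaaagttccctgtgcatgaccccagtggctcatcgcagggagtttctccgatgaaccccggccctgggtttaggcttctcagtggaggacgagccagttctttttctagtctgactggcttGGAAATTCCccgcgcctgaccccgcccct
Rsad2, chr12:26456453-26456602, minus strand: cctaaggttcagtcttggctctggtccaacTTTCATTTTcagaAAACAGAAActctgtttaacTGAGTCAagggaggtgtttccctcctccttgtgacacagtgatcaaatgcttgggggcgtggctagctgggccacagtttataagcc
Cxcl10, chr5:92348890-92349039, minus strand: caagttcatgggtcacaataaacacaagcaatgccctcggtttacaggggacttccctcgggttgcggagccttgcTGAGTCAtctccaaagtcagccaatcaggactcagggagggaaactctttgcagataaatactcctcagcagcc
Among the genes called higher are these.
Saa3, chr7:46715677-46715826, minus strand: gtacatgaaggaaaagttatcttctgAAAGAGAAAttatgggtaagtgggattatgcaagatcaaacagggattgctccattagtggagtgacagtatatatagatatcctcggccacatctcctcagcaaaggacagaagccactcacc
Prdx1, chr4:116685449-116685598, plus strand: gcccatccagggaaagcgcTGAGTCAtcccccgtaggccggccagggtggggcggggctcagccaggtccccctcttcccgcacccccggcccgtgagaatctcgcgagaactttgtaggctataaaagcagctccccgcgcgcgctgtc
Slpi, chr2:164356508-164356657, minus strand: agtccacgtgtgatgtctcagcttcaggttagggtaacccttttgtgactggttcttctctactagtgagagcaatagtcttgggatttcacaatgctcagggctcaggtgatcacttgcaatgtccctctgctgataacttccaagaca

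The kappaB match began 96 bases before the start in Cxcl2, 43 in Il6 and 29 in Nfkbia. Rsad2 held an ISRE match at 120 and another at 107 bases before the start, with an AP-1 match at 87, and Cxcl10 held an AP-1 match at 74. Saa3 held an ISRE match at 124 bases and Prdx1 an AP-1 match at 131 bases before the start, and the Slpi stretch held none of these letters. The same stretch also held no match in Il12b and Tnf, which were called lower, or in Lcn2 and Marco, which were called higher, and these are not printed. Over whole windows of 300 bases (250 before to 50 after the start), promoters were on hand for 9360 of the genes tested. A kappaB match was found in 6.56% of 778 promoters of genes called lower by at least 4-fold, in 4.13% of 750 promoters of genes called higher by at least 4-fold, and in 4.65% of the 11945 promoters of all genes tested. The ISRE shares were 12.2%, 6.53% and 8.23%, and the AP-1 shares 9.38%, 5.60% and 5.24%, in the same order. For comparison, the CCAAT box was found in 34.1%, 38.1% and 37.6%. A match is a run of letters and not a measured binding site, and most promoters of genes that fell held none of the 3 elements. Other spellings of each element were not searched, so a stretch without a match may still hold one.

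Of the gene lists, cytokines had the lowest median. The lists were chosen with earlier results of these data known, so the order of their medians gives no separate support. Of 28 cytokine and growth factor genes tested, 21 were lower after LPS 24h and 1 was higher, with a median log2 fold change of -4.25, beside 0.14 over all genes tested. Il12b (chr11:44400063-44414033 in GRCm38), which encodes the p40 chain shared by interleukins 12 and 23, stood at 2155, 2550 and 3309 normalised CPM after LPS 3h and at 10.6, 19.7 and 12.6 after LPS 24h (log2 fold change -7.54 ± 0.53 SE, adjusted p = 4.34e-12). The means differed by 187-fold. Il23a (chr10:128296139-128298752), the other chain of interleukin 23, stood at 106, 107 and 73.8 and then had 0 counts in all 3 LPS 24h libraries, which makes it at least 311-fold lower when each library is set to 3 counts. Il27 went from 633, 889 and 792 to 3.53, 5.90 and 3.44, and Tnfsf15, a TNF family ligand, from 1408, 1357 and 1780 to 9.62, 10.7 and 6.97. In none of these genes did the groups overlap.

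Il6 (chr5:30013114-30019981) went from 378, 502 and 393 normalised CPM to 2.92, 4.38 and 3.73 (-6.84 ± 0.63, adjusted p = 9.39e-10), a level that was 0.231 on average in WT Unstim. cells. Tnf stood at 3524, 2012 and 2179 after LPS 3h and at 50.5, 41.1 and 35.1 after LPS 24h (-5.93 ± 0.42, adjusted p = 4.34e-12). Edn1, the vasoconstrictor endothelin, fell from 564, 535 and 769 to 2.56, 3.49 and 8.41, which was near its WT Unstim. mean of 5.98. Il1b went from 6259, 5892 and 4467 to 524, 280 and 234 (-4.00 ± 0.34, adjusted p = 1.91e-10) and Il1a from 5815, 2746 and 2687 to 160, 172 and 115. These interleukin 1 genes were still above the WT Unstim. means of 5.03 and 3.70. Il10, which restrains macrophage cytokine output, went from 62.3, 60.0 and 48.2 to 3.29, 1.34 and 4.49, and Ifnb1, the interferon beta gene, from 5.83, 31.9 and 19.6 to 0.243, 0.536 and 2.10.

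Some cytokine genes did not pass the test. Il1rn, the antagonist of the interleukin 1 receptor, stood at 1073, 845 and 620 after LPS 3h and at 959, 1036 and 600 after LPS 24h, and its log2 fold change of 0.032 had a 95% interval of -0.63 to 0.70. It was 13.7 on average in WT Unstim. cells. Inhba was measured at 138, 242 and 241 and then at 142, 158 and 233. The gene called higher was Il18bp, which binds and blocks interleukin 18, at 23.1, 22.2 and 23.6 and then 61.7, 57.4 and 22.2. Its late cultures overlapped the early ones in replicate 3 (1.03 ± 0.37, adjusted p = 0.0313), and its call was lost without any 1 culture other than WT LPS 24h replicate 3, whereas Il18 itself fell from 61.2, 74.1 and 59.3 to 17.5, 25.1 and 13.7.

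**Figure D2:**
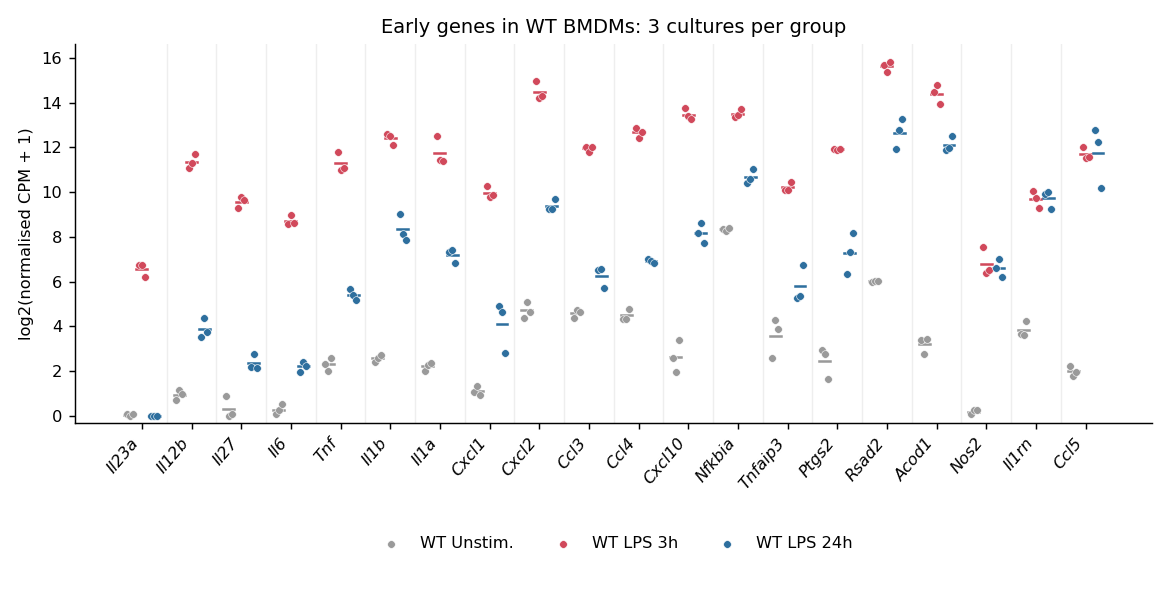
Level of 20 genes of the early response as log2(normalised CPM + 1) on the y axis, with each of the 3 cultures as a point and the mean as a bar, for WT Unstim. (grey), WT LPS 3h (red) and WT LPS 24h (blue). Il23a returned to 0 counts, the genes from Il12b to Acod1 lay below their LPS 3h cultures and above those of WT Unstim., and Nos2, Il1rn and Ccl5 overlapped between LPS 3h and LPS 24h.

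Among 20 chemokine genes, 13 were lower and 1 was higher, and they ranged from steep declines to genes that were not called. Ccl4 and Ccl3, which attract monocytes and T cells, went from 7500, 5532 and 6670 to 128, 120 and 115 and from 4201, 3572 and 4179 to 92.0, 93.0 and 51.7. Cxcl1, like Cxcl2 a neutrophil attractant, went from 1251, 881 and 937 to 29.3, 24.0 and 6.02 (-5.70 ± 0.52). Cxcl10, induced by interferons and a ligand of Cxcr3, went from 13719, 10722 and 9905 to 288, 392 and 209 (-5.27 ± 0.41, adjusted p = 4.35e-11). Its relative Cxcl9 fell from 727, 1252 and 665 to 183, 164 and 114 (-2.52 ± 0.42). Ccl5 was the exception at high level: it stood at 4182, 2945 and 3014 after LPS 3h and at 6930, 4911 and 1153 after LPS 24h, with the late cultures on both sides of the early ones (0.36, 95% interval -0.48 to 1.19). Ccl2 stood at 691, 733 and 676 and then at 298, 518 and 371, without overlap of the cultures but short of the threshold (adjusted p = 0.124). Ccl8 rose from 7.66, 8.06 and 5.30 to 43.1, 49.1 and 24.4 (2.47 ± 0.48).

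Of 11 genes for NF-kappaB subunits and their inhibitors, 10 were lower and 0 were higher. Nfkbiz, an inducible cofactor, went from 3079, 2437 and 2464 to 154, 226 and 200 (-3.78 ± 0.40), and Nfkb1 from 1415, 1123 and 1251 to 101, 108 and 139 (-3.44 ± 0.29). Nfkbia, the inhibitor resynthesised after each round of activation, went from 10408, 11117 and 13652 to 1350, 1534 and 2095, still above its WT Unstim. mean of 325. The gene that did not pass was Nfkbie, in which replicate 1 alone stayed at its early level, at 202, 221 and 286 and then 248, 26.9 and 29.2.

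Of 22 feedback inhibitors, 16 were lower and 3 were higher. Cish, a suppressor of cytokine signalling, went from 150, 130 and 141 to 1.34, 0.715 and 2.29, Tnfaip3, the deubiquitinase A20, from 1079, 1104 and 1402 to 37.5, 39.9 and 107, and Dusp2, a MAP kinase phosphatase, from 353, 317 and 342 to 9.50, 8.49 and 4.20. Socs1 and Socs3, which block cytokine receptors, also fell (-3.79 ± 0.40 and -3.03 ± 0.40). The genes called higher were Zfp36l1, an mRNA-destabilising protein at 90.2, 57.8 and 99.1 and then 214, 298 and 551, Dusp6 at 13.5, 14.6 and 13.2 and then 31.2, 59.3 and 104, and Dusp1 at 130, 104 and 93.0 and then 232, 258 and 222. Irak3, which blocks receptor signalling in macrophages, stayed between 211 and 484 in all 6 cultures and was not called (-0.46, adjusted p = 0.37).

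Of 24 immediate early and AP-1 genes, 13 were lower and 3 were higher. Maff went from 146, 159 and 216 to 5.72, 11.0 and 5.92 (-4.52 ± 0.39), Junb from 622, 647 and 662 to 133, 145 and 191, and Klf6 from 5006, 6413 and 5790 to 1319, 1375 and 1869. The 3 called higher rested on WT LPS 24h replicate 3. Jund stood at 161, 101 and 124 after LPS 3h and at 123, 213 and 943 after LPS 24h, Jun at 133, 167 and 134 and then 196, 312 and 491, and Fos at 42.1, 18.3 and 26.1 and then 28.6, 74.9 and 155. Without that library, the log2 fold changes were 0.29, 0.72 and 0.76 (adjusted p = 0.599, 0.0755 and 0.296), and 0 of the 24 genes were higher.

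Of 34 antiviral interferon-stimulated genes, 19 were lower and 2 higher, with a median log2 fold change of -1.22 beside the -4.25 of cytokines. Cmpk2, a mitochondrial nucleotide kinase beside Rsad2 in the genome, went from 4651, 5927 and 5622 to 337, 587 and 359 (-3.66 ± 0.38), and Irf1, a transcription factor induced by interferons and NF-kappaB, from 2194, 2042 and 2137 to 116, 173 and 265 (-3.52 ± 0.31). Ifit1 went from 9103, 21218 and 7635 to 1120, 2220 and 1043. Stat2, a signal transducer of the interferon receptor, overlapped between the times, at 1275, 1021 and 1190 and then at 719, 1002 and 2253. Irf7, the factor that amplifies interferon production, was measured at 338, 618 and 229 and then at 979, 676 and 471 (0.84, adjusted p = 0.0807). Bst2, which tethers budding virus, rose from 35.0, 22.0 and 29.1 to 170, 149 and 181, and Ifi44 from 249, 244 and 309 to 557, 496 and 611. The Ifi44 call was lost without WT LPS 24h replicate 3, WT LPS 3h replicate 1 or WT LPS 3h replicate 2.

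Of 13 guanylate-binding proteins and immunity-related GTPases, which attack vacuoles that hold microbes, 9 were lower and 0 were higher. Gbp5 fell most, from 1610, 1688 and 2158 to 15.8, 62.7 and 75.6 (-5.14 ± 0.65), and Iigp1 went from 781, 1277 and 1199 to 78.6, 148 and 83.4. Gbp2 and Irgm2 fell to a lesser degree, by 2.24 and 1.82 on the log2 scale.

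Genes through which macrophages address T cells were also lower. Of 13 genes for MHC class II and co-stimulation, 8 were lower and 0 were higher. Cd40 went from 997, 1126 and 855 to 34.9, 55.1 and 32.6 (-4.60 ± 0.42), and Cd86 from 65.8, 33.8 and 64.5 to 14.4, 13.0 and 7.74. Cd274, which encodes the inhibitory ligand PD-L1, fell from 1261, 681 and 692 to 203, 421 and 227. Class II genes themselves were low at both times, with Cd74 at 43.2, 46.5 and 22.3 and then 22.5, 18.1 and 7.45. On the class I side 3 of 15 genes (20.0%) were higher and 1 (6.67%) was lower, beside 16.8% and 15.5% of all genes tested. H2-K1 rose from 811, 697 and 706 to 1772, 1786 and 2390 (1.43 ± 0.31), while Nlrc5, the class I transactivator, fell from 108, 104 and 114 to 22.0, 19.0 and 14.2. H2-Q4 was called higher at 1.91. Without WT LPS 24h replicate 3, H2-Q4 stood at 0.81 (adjusted p = 0.331) and B2m at 0.83 (adjusted p = 0.0667), which leaves 1 of the 15 genes higher.

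Members of the LPS receptor complex and the other Toll-like receptors split in both directions. Of 20 genes 5 (25.0%) were higher and 7 (35.0%) lower, beside 16.8% and 15.5% of all genes tested. Tlr2 fell most, from 555, 471 and 361 to 28.7, 19.8 and 10.0, followed by Cd14, from 922, 970 and 1071 to 196, 163 and 76.9, and the kinase Irak2, from 139, 127 and 179 to 40.2, 34.0 and 33.0. Myd88 went from 214, 208 and 169 to 75.5, 77.7 and 40.2. The receptors called higher were Tlr9, from 13.1, 18.7 and 14.8 to 88.7, 79.1 and 97.0, Tlr13, from 35.4, 50.3 and 37.9 to 179, 133 and 98.0, and Tlr4, from 21.7, 12.0 and 13.4 to 32.1, 29.0 and 30.3. The Tlr4 call was close to the threshold (adjusted p = 0.0481) and was lost under DESeq2's size factors. It was also lost without WT LPS 24h replicate 3 (0.87, adjusted p = 0.118). The WT Unstim. mean of Tlr4 was 43.8. Without WT LPS 24h replicate 3, 3 of the 20 genes were higher.

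Of 14 inflammasome and pyroptosis genes, 5 (35.7%) were lower and 2 (14.3%) higher, beside 15.5% and 16.8% of all genes tested. Nlrp3, the sensor of the inflammasome that matures interleukin 1 beta, went from 836, 1326 and 5241 to 44.8, 29.0 and 47.6 (-5.93 ± 0.50, adjusted p = 1.91e-10, or -4.81 without WT LPS 3h replicate 3), against a WT Unstim. mean of 25.0. Casp4, which senses LPS in the cytosol and is also called caspase-11, went from 326, 336 and 455 to 111, 109 and 70.9. Casp1 stood at 539, 303 and 244 and then at 172, 255 and 218 and was not called (adjusted p = 0.121). The ATP-gated channels P2rx7, at 9.11, 6.28 and 9.94 and then 22.9, 25.1 and 19.2, and P2rx4 were higher, but P2rx4 lost its call under DESeq2's size factors and without any 1 of the 6 cultures. Without WT LPS 24h replicate 3 it stood at 0.57 (adjusted p = 0.103), and 1 of the 14 genes was higher. Ptgs2, the inducible cyclooxygenase, fell from 3945, 3776 and 3948 to 81.2, 160 and 286 (-4.47 ± 0.46, or -5.11 without WT LPS 24h replicate 3). It was 1 of 3 lower genes (21.4%) among 14 of prostaglandin and leukotriene synthesis. In that list 1 gene (7.14%) was higher, beside 15.5% lower and 16.8% higher of all genes tested.

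Effector genes of the late phase were led by Arg1 and Saa3. Arg1 (chr10:24915221-24927484), the arginase that competes with nitric oxide synthase for arginine, stood at 37.2, 9.60 and 4.64 normalised CPM after LPS 3h and at 2641, 2251 and 2148 after LPS 24h, a difference of the means of 137-fold (7.12 ± 0.59, adjusted p = 1.67e-10). Without WT LPS 3h replicate 1, the highest early culture, the log2 fold change was 8.28. It was 0.862 on average in WT Unstim. cells. Saa3 (chr7:46711998-46715700), whose cultures are given above, rose by 22.6-fold (4.50 ± 0.43, adjusted p = 2.31e-09), from a WT Unstim. mean of 13.3. Nos2, the inducible nitric oxide synthase, stood at 184, 82.1 and 90.3 and then at 95.4, 127 and 74.0, and the groups overlapped (-0.27, 95% interval -1.22 to 0.69). Of the 24 genes of arginine, nitric oxide, itaconate and antimicrobial functions, 7 (29.2%) were higher and 8 (33.3%) lower, beside 16.8% and 15.5% of all genes tested.

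The other genes of that list called higher were secreted or surface proteins of host defence. Slpi, a protease inhibitor, went from 13.3, 9.36 and 1.06 to 222, 114 and 50.4. Lcn2, which binds bacterial iron carriers, went from 96.4, 82.9 and 78.2 to 552, 342 and 155, and Hp, which binds haemoglobin, from 8.38, 13.4 and 6.89 to 71.9, 71.5 and 20.0. In all 3 genes WT LPS 24h replicate 3 was the lowest late culture and still above the early ones. Marco, a scavenger receptor for bacteria, went from 12.6, 12.4 and 10.5 to 168, 116 and 79.6 (3.36 ± 0.49), and Cd38, which cleaves NAD, from 45.4, 22.5 and 37.5 to 213, 252 and 265. Acod1 was itself among the early genes. It stood at 22837, 28063 and 15643 after LPS 3h and at 3794, 4015 and 5799 after LPS 24h (-2.29 ± 0.47, adjusted p = 3.51e-04), compared with 8.42 in WT Unstim. cells. Mmp13, a collagenase, fell from 1571, 4571 and 2514 to 49.7, 76.4 and 83.5, and Camp, an antimicrobial peptide of neutrophil granules, from 24.6, 15.5 and 16.6 to 1.46, 0.626 and 0.

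**Figure D3:**
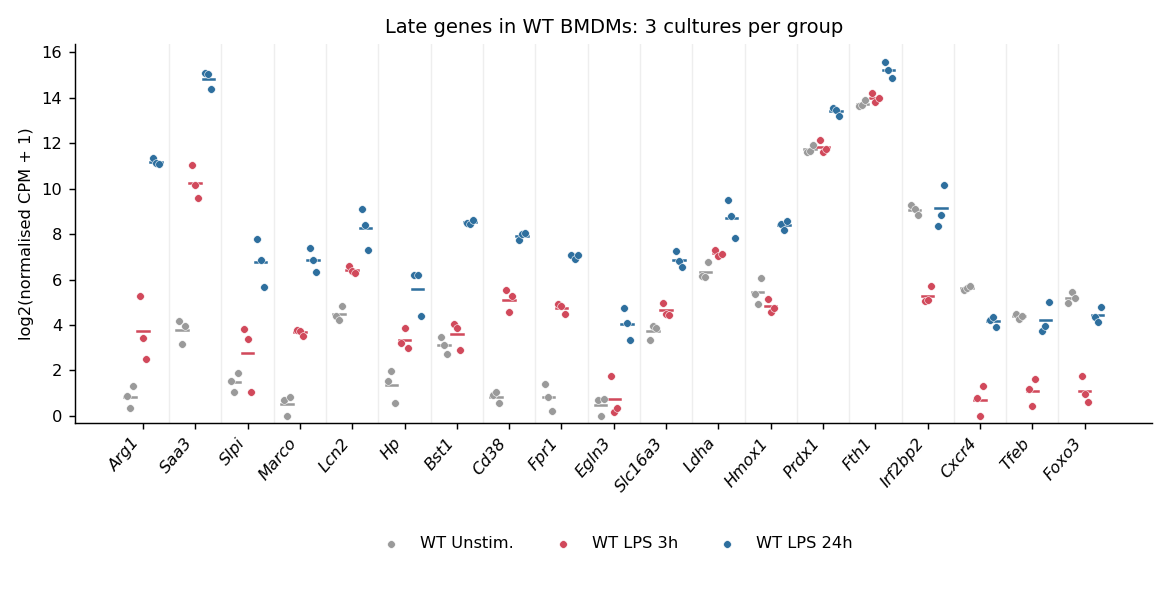
Level of 19 genes called higher after LPS 24h as log2(normalised CPM + 1) on the y axis, with each of the 3 cultures as a point and the mean as a bar, for WT Unstim. (grey), WT LPS 3h (red) and WT LPS 24h (blue). Arg1, Saa3, Marco, Cd38 and Fpr1 were higher after LPS 24h than in both other groups, whereas Irf2bp2, Cxcr4, Tfeb and Foxo3 were lowest after LPS 3h and high in WT Unstim. cells.

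A ranking with at least 10 normalised CPM in the higher group and counts above 3 in some library of the lower group, chosen after values were seen because the fixed rule named genes at a few counts, put Ccdc125, Slamf6 and Bst1 after Arg1. The 30 genes in each direction of that ranking hold 2 patterns among those called higher. Some were low in WT Unstim. cells as well as after LPS 3h. Bst1, an enzyme related to Cd38, stood at 15.5, 13.6 and 6.49 and then at 358, 343 and 396 (4.95 ± 0.35, adjusted p = 3.79e-12), with a WT Unstim. mean of 7.83. Slamf6, a receptor of immune cells, went from 2.37, 1.19 and 0.132 to 54.7, 50.3 and 16.0, with a WT Unstim. mean of 0.779, and Egln3, an oxygen-sensing enzyme that acts on HIF proteins, from 2.37, 0.119 and 0.265 to 25.9, 16.0 and 9.26.

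Others were high in WT Unstim. cells, low after LPS 3h and high again after LPS 24h. Irf2bp2, a transcriptional repressor, averaged 540 and went from 32.6, 33.3 and 51.3 to 331, 453 and 1159. Without WT LPS 24h replicate 3 its log2 fold change was 3.23 in place of 4.05. The chemokine receptor Cxcr4 averaged 48.5 in WT Unstim. cells and went from 0.729, 0 and 1.46 to 17.5, 19.3 and 14.2, which is below the unstimulated mean. Tfeb, the regulator of lysosome genes, averaged 19.9 and went from 1.28, 0.356 and 2.12 to 12.4, 14.6 and 30.9, and Foxo3 averaged 36.3 and went from 2.37, 0.948 and 0.530 to 19.5, 16.7 and 26.9. Gpr157 is in the ranking mainly through WT LPS 24h replicate 3, at 73.7 against 5.72 and 12.5 (4.67, or 2.83 without it).

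The fixed rule, which takes the largest fitted changes of called genes whose cultures do not overlap and which reach a group mean of 10 counts, named 15 genes called higher that all had 0 counts in the 3 LPS 3h libraries. Fam78a led them at 3.90, 6.70 and 5.16 normalised CPM after LPS 24h, at least 12.1-fold higher with each LPS 3h library set to 3 counts, followed by Mblac1 at 5.97, 4.29 and 5.16. Fam78a averaged 8.45 in WT Unstim. cells and Mblac1 3.61. On the other side, behind Il23a, the rule named Gprc5c at 27.3, 8.06 and 14.0 after LPS 3h, Ifi202b at 5.83, 4.74 and 7.55 and the mitosis genes Nusap1 and Ube2c, all with 0 counts after LPS 24h. In all, 134 genes called higher and 109 called lower had no library above 3 counts in the lower group, so their folds are bounds only.

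Glycolysis had the highest median of the 24 gene lists, cell type markers aside (0.72, against 0.14 over all genes tested), with 9 of 22 genes higher and 3 lower. Tpi1 went from 95.3, 57.8 and 61.5 to 531, 389 and 319 (2.53 ± 0.32), Gapdh from 36.5, 22.5 and 18.7 to 164, 97.4 and 80.4, Pkm from 184, 164 and 177 to 914, 689 and 382, and Ldha from 157, 130 and 140 to 720, 445 and 226. The lactate exporter Slc16a3 rose as well, from 30.4, 21.6 and 20.9 to 153, 113 and 92.2. The 3 genes called lower act at early steps of the pathway or upstream of it. Hk2, the inducible hexokinase, fell from 897, 807 and 1071 to 237, 201 and 267, Pfkp, a phosphofructokinase, from 113, 97.8 and 111 to 31.8, 23.1 and 21.5, and Hif1a, the factor that drives glycolytic genes, from 875, 999 and 795 to 362, 385 and 719. The Hif1a call was lost with library size alone and without any 1 of 4 of the libraries. Genes of mitochondrial respiration showed few calls. Of 21 TCA cycle genes 0 were higher and 2 lower, namely Suclg2 (-1.13 ± 0.30) and Dld (-0.82 ± 0.27). Without WT LPS 24h replicate 3, 2 were higher and 1 lower, with Dld at -0.76 (adjusted p = 0.0566), and with library size alone 8 were higher and 0 lower. Of 40 nuclear oxidative phosphorylation genes 2 were higher and 0 lower, namely Cox5a (0.89 ± 0.31) and Ndufs1 (0.84 ± 0.31). Neither was called without WT LPS 24h replicate 3 (0.77, adjusted p = 0.0791, and 0.37, adjusted p = 0.415), Cox5a also lost its call without any 1 of 4 other cultures, and with library size alone 24 of the 40 genes were higher.

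Of 25 NRF2 targets and antioxidant genes, 5 (20.0%) were higher and 3 (12.0%) lower, near the 16.8% and 15.5% of all genes tested. Hmox1, which degrades haem, rose from 34.6, 23 and 25.7 to 345, 289 and 384 (3.61 ± 0.40, adjusted p = 2.65e-08), and Prdx1 from 4528, 3096 and 3465 to 12107, 11367 and 9263 (1.56 ± 0.32). In the other direction, the cystine importer Slc7a11 fell from 1033, 556 and 704 to 134, 122 and 205, and Txnrd1 from 597, 701 and 843 to 138, 206 and 249. Among 15 genes of iron, zinc and metallothioneins, the ferritin chains Fth1 (1.24 ± 0.29) and Ftl1 (1.29 ± 0.34), the iron exporter Slc40a1 and the phagosomal metal transporter Slc11a1 were higher, Slc11a1 not without WT LPS 3h replicate 3 or either of WT LPS 24h replicates 1 and 2. The metallothioneins, which bind zinc, were lower: Mt2 went from 1657, 1668 and 1482 to 62.1, 39.7 and 10.9, and Mt1 from 1221, 925 and 886 to 148, 115 and 59.7. Of 20 ATF4 and endoplasmic reticulum stress genes 6 were higher and 2 lower, beside 16.8% and 15.5% of all genes tested. Ddit3, a factor of the stress response, rose from 9.84, 10.9 and 7.82 to 60.6, 81.2 and 76.7 (2.93 ± 0.31). Sesn2 and Hsp90b1 were not called without WT LPS 24h replicate 3 (2.23, adjusted p = 0.0688, and 0.44, adjusted p = 0.414). In that fit 3 of the 20 genes were higher, beside 1533 of the 11878 genes tested.

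Of 21 scavenger, lectin and phagocytic receptors, 7 (33.3%) were higher and 8 (38.1%) lower, beside 16.8% and 15.5% of all genes tested. The formyl peptide receptor Fpr1 rose from 29.0, 27.4 and 21.3 to 135, 117 and 135, and the Fc receptor Fcgr1 from 195, 208 and 184 to 597, 702 and 244. The mannose receptor Mrc1 fell from 368, 423 and 570 to 15.1, 31.5 and 57.8 (-3.70 ± 0.43, or -4.37 without WT LPS 24h replicate 3), and Trem2, a lipid-sensing receptor, from 310, 206 and 170 to 71.6, 73.1 and 39.7. Ch25h, which makes 25-hydroxycholesterol, fell from 141, 86.4 and 76.3 to 1.46, 4.02 and 5.44, and Apoe from 5537, 5997 and 4403 to 1861, 1995 and 1175. The oxysterol receptor Nr1h3 and the exporter Abcg1 were higher, at 6.56, 8.30 and 4.24 and then 43.5, 52.3 and 33.5 for Nr1h3 and at 113, 104 and 106 and then 219, 271 and 418 for Abcg1. Of 22 cholesterol synthesis and uptake genes, 5 (22.7%) were lower, among them Insig1, beside 15.5% of all genes tested. Lss was the 1 gene (4.55%) called higher, beside 16.8%, although not without WT LPS 3h replicate 3. Of 28 lysosomal genes 4 were higher and 3 lower, with Tfeb and the sialidase Neu1 (1.90 ± 0.31) among the former and Atp6v0d2, a proton pump subunit, at 173, 278 and 207 and then 26.8, 26.5 and 34.8 among the latter. The lysosomal shares were 14.3% higher and 10.7% lower, beside 16.8% and 15.5% of all genes tested.

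Of 37 cell cycle and mitosis genes, 13 were lower and 1, E2f1, was higher. Ccnd2, a D-type cyclin, went from 1193, 1050 and 1306 to 60.1, 60.7 and 67.5 (-4.24 ± 0.32, adjusted p = 2.42e-11), from a WT Unstim. mean of 50.2, and Mki67, a marker of cycling cells, from 147, 436 and 159 to 4.26, 7.78 and 12.8. Top2a went from 26.4, 56.5 and 44.1 to 4.87, 4.56 and 6.50. The inhibitor Cdkn1a (p21), a member that stops the cycle, was also lower, at 15748, 5871 and 12060 and then 2361, 3374 and 5513, which is still above its WT Unstim. mean of 348. Markers of neutrophils and their precursors moved in the same direction. Their summed level over 8 genes was 561 to 666 normalised CPM after LPS 3h, 535 to 719 in WT Unstim. and 72.1 to 231 after LPS 24h, with 5 of the 7 tested lower, among them Ngp at 59.6, 52.3 and 35.5 and then 5.23, 2.32 and 1.05. Stromal markers summed to 320 to 430 and then 185 to 247, with 3 of 6 lower, or 1 without WT LPS 24h replicate 3. The part of these cells in the cell cycle and Camp results was not tested, and in a bulk sample fewer cells of a type and less RNA per cell cannot be told apart. The 10 macrophage markers were detected in every group and summed to 6569 to 8355 after LPS 3h and 5562 to 9106 after LPS 24h. Markers of T or NK cells, B cells, dendritic cells, mast cells and erythroid cells summed to at most 4.56 in any WT LPS 3h or LPS 24h library.

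**Figure D4:**
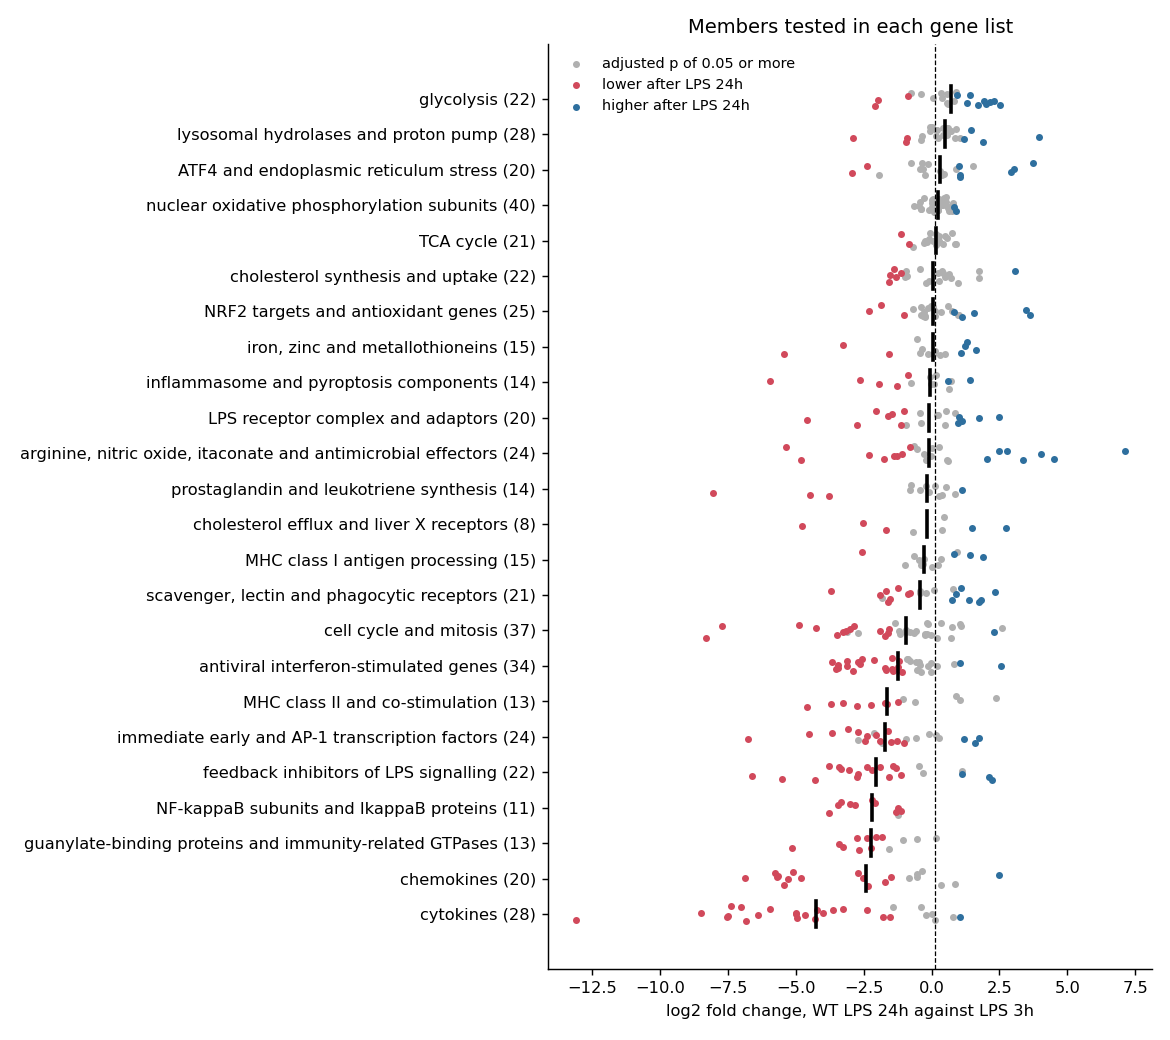
Log2 fold change (x axis, WT LPS 24h against LPS 3h) of every tested member of 24 gene lists, one list per row with its number of members tested, in blue where called higher, red where called lower and grey otherwise. The lists were chosen with earlier results of these data known. The black bar is the list's median and the dashed line the median of all genes tested (0.14); medians run from -4.25 for cytokines to 0.72 for glycolysis, and the point furthest to the left is Il23a, a fitted value for a gene at 0 counts after LPS 24h.

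Across the lists, the medians of cytokines, chemokines, NF-kappaB, feedback inhibitors, immediate early genes, antiviral genes, guanylate-binding proteins, MHC class II and the cell cycle were below 0 under TMM, under DESeq2's size factors, without the 20 most abundant genes in the scaling and with library size alone. Under these 4 settings, in the same order, the median of all genes tested was itself above 0, at 0.14, 0.045, 0.086 and 0.78. Glycolysis lay above it in each, at 0.72, 0.61, 0.63 and 1.38, whereas the TCA cycle, at 0.18, 0.085, 0.13 and 0.83, and oxidative phosphorylation, at 0.23, 0.13, 0.16 and 0.89, lay close to it. The lysosome and ATF4 lists had medians of 0.48 and 0.33 under TMM. The other medians lay within 0.44 of 0 under TMM and changed sign under at least 1 scaling, so no direction is given for these lists as a whole. Since members were chosen with earlier results of these data known, the order of the medians depends in part on that choice.

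In Irg1-/- cells, the same comparison called 2159 genes (18.2%) higher and 2003 (16.9%) lower, and it shares no library with the WT comparison. Of the WT genes called higher, 67.6% were also called higher in Irg1-/-, and of those called lower, 80.0% were also called lower. Seen from Irg1-/-, 62.4% and 73.4% of its calls were WT calls. The difference between the genotypes was then tested directly. It passed the threshold for 0 of 11878 genes (0%) with edgeR, where the smallest adjusted p was 0.0726, for Pdgfb. The Pdgfb log2 fold change was -1.27 in WT, or -2.47 without WT LPS 24h replicate 3, and -4.37 in Irg1-/-. At an unadjusted p under 0.05, 769 genes (6.47%) passed, where a fraction of about 0.05 would pass if no gene differed. DESeq2's Wald test called 17. All 3 Irg1-/- LPS 24h libraries came from 1 pool, and no Irg1-/- LPS 3h library did, so in that genotype pool and time cannot be told apart.

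Acod1 was near its background in Irg1-/- cells, with a mean of 12.0 ± 12.9 at LPS 3h (SD, n = 3) and of 8.75 ± 2.52 at LPS 24h, so its decline could be followed in WT only. Cxcl10 fell in both genotypes, by 5.27 on the log2 scale in WT and by 7.63 in Irg1-/-, to 296 ± 91.6 and 51.0 ± 24.5 after LPS 24h, and the difference of 2.35 passed DESeq2's test but not edgeR's (adjusted p = 0.178). Dusp1 and Igf2bp2 were called in opposite directions. Dusp1 was higher in WT (1.13 ± 0.31) and lower in Irg1-/- (-0.84), and its difference of 1.96 also missed edgeR's threshold (adjusted p = 0.218). The WT call of Dusp1 was lost without WT LPS 3h replicate 3, and that of Igf2bp2 under DESeq2's size factors and without WT LPS 24h replicate 3 (0.32, adjusted p = 0.455). Arg1 rose in both, by 7.12 and 8.91, to 2347 ± 260 in WT and 2803 ± 64.1 in Irg1-/-.

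**Figure D5:**
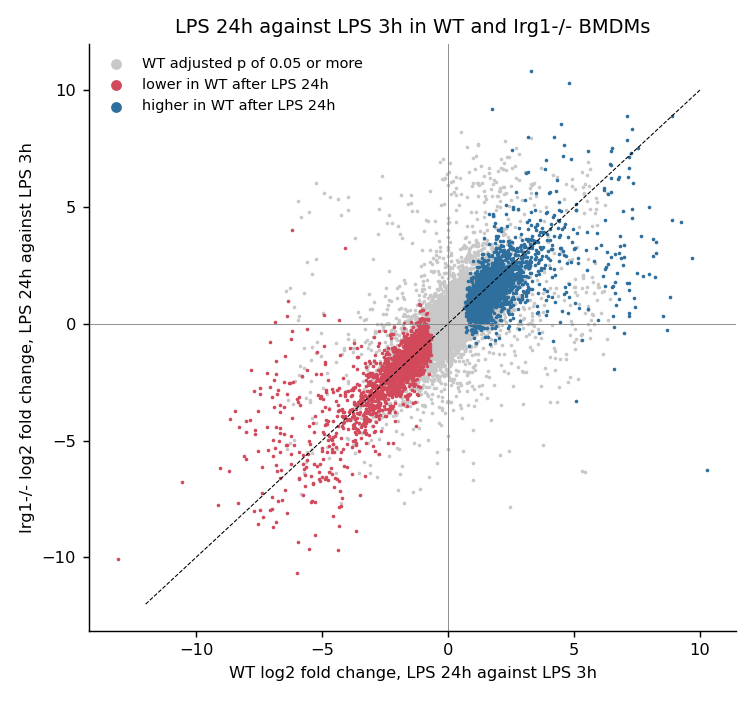
Log2 fold change, LPS 24h against LPS 3h, of each gene tested in WT (x axis) and in Irg1-/- BMDMs (y axis), coloured by the WT call, with equality as the dashed line. Most coloured points lie in the same quadrant for both genotypes, 1943 of the 1994 WT higher genes and 1806 of the 1838 WT lower genes having the same sign in Irg1-/-.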

How the data were processed

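Reverse transcription from oligo-dT primers with a barcode was followed by pooling, PCR and sequencing of 3' ends. Per the submitters' processing notes, reads were aligned with STAR to mm10, and the authors deposited whole counts of reads per gene and library, without normalization. The counting program, annotation and strand setting are not given in the sources used here, so overlapping genes and near-identical family members are uncertain. The primer carries no molecular identifier, so PCR copies are counted as reads. The fold bounds, with each library set to 3 counts, cover counting error only. The standard errors and intervals come from the fit across cultures, so they include variation between cultures. Groups, genotype and replicate numbers came from the labels, and the pool from a prefix of the labels. 0 columns were left unused, and summary lines of the table were left out.

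Genes were named from GENCODE M21 (GRCm38). edgeR 4.0.16 (R 4.3.3) kept 11878 of 22165 genes with filterByExpr on the 8 groups, scaled by TMM and fitted all 24 libraries with 1 term per group by glmQLFit and glmQLFTest, with Benjamini-Hochberg adjustment over all genes tested and a threshold of 0.05. The standard error is the log2 fold change divided by the square root of F. The difference between genotypes was tested as an interaction in the same fit. Alternatives were DESeq2 1.42.0, other scalings, other filters, the compared groups only, the replicate number as a block, the pool as a term and each culture left out. The scripts were tested on simulated counts. The members and gene lists were chosen with earlier results of these data known. Named genes were the 15 highest and 15 lowest log2 fold changes among called genes whose cultures do not overlap and that reach a mean of 10 counts in the higher group, the 5 largest gains and losses in CPM, and list members. Lists are described by counts, with no test. Promoters came from RefSeq, and those on 1 chromosome were left out. Replicates are separate cultures per the labels' numbering, and nothing states whether they came from separate mice. Some genes are not reported here.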

Additional observations from a re-analysis of the deposited data

How the results depend on the processing

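Of 149 genes named in the report, 139 were called, and each was refitted under 16 alternatives. No called gene changed direction under any of them, and 22 genes lost their call under at least 1. With library size alone in place of TMM, 4461 genes were higher and 1042 lower in place of 1994 and 1838. Under the other scalings, filters and models the counts of higher genes ran from 1379 to 2119 and those of lower genes from 1546 to 2227. Leaving out 1 WT culture gave 1333 to 1580 genes higher and 1584 to 1853 lower, and 0 to 1 gene for the difference between genotypes, for which DESeq2's Wald test gave 17 and the fit without a filter on low counts 78, against 0. The cause was not tested.

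Genes that were not called changed sign as follows. Il1rn was at -0.065 with DESeq2's size factors and with DESeq2's test, at -0.036 with TMM without the 20 top genes and at -0.063 with a mean of at least 10 counts, and ran from -0.23 to 0.16 over the cultures left out. With library size alone, Inhba was at 0.41, Irak3 at 0.16 and Nos2 at 0.37. Leaving out 1 culture gave -0.23 to 0.71 for Ccl5, -0.56 to 0.12 for Nos2 and -0.53 to 0.45 for Stat2.

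Same-numbered WT cultures did not deviate together (correlations 0.0778, -0.0372 and 0.0598), so the numbers were not taken as pairs. With the replicate block, 2074 genes were higher and 1958 lower over all libraries, and 1379 and 1559 in the compared WT groups only. Genes at a few counts per library, such as Fam78a, are limited by depth, and their folds are bounds.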
